A study of Mus musculus with 37 samples.

Results

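The presynaptic vesicle release machinery was taken as 46 genes chosen by name, and each was followed by its brightest Affymetrix probe set, the one with the highest mean over all arrays. All 46 members were measured, out of 18193 genes that had a probe set with 1 gene symbol. The members held 111 probe sets in all, of which the 65 less bright ones were kept as a check. Cortex RNA was profiled on 1 array for each labelled mouse, all aged 9 wk, from 10 Dble::R6/2, 9 R6/2, 9 Hdac4HET and 9 WT mice on a CBA x C57Bl/6 background. R6/2 mice carry a transgene with exon 1 of mutant human huntingtin under the human promoter, the change that causes Huntington's disease, and WT mice carry neither mutation. Hdac4HET mice carry 1 null allele of Hdac4, a class IIa histone deacetylase, in every cell. Dble::R6/2 mice carry both the transgene and the null allele. The R6/2 line makes only a short N-terminal part of huntingtin beside the normal mouse protein, and the cortex was profiled as whole tissue. The study asked whether less Hdac4 alters gene expression in R6/2 cortex.

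Neurons release transmitter when a vesicle docked at the active zone fuses with the plasma membrane. Fusion is driven by SNARE proteins, with a vesicle SNARE (Vamp) pairing with Stx1a and Snap25 on the plasma membrane. Munc13 (Unc13) and Rim proteins make docked vesicles ready, complexins hold and then promote the assembled SNARE complex, and synaptotagmins sense the calcium that enters with an action potential. Rab3 GTPases, rabphilin, Doc2 proteins, synapsins and the SV2 and four-pass membrane proteins sit on the vesicle and tune its supply and release. In cortex these genes are expressed by both glutamatergic and GABAergic neurons, often with a different family member in different cell types.

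Levels are log2 values throughout, and the median over probe sets ranged only from 6.16 to 6.21 across arrays. Hdac4 itself ranged from 7.70 to 7.98 in Dble::R6/2 and from 7.80 to 8.02 in Hdac4HET cortex, against 8.31 to 8.55 in R6/2 and 8.28 to 8.64 in WT cortex. Markers of the olfactory bulb, which adjoins the cortex, averaged higher over 12 genes than on any WT array in 8 mice, namely Dble::R6/2 replicate 10 and Hdac4HET replicates 1, 3, 4, 5, 6, 7 and 9. Of these, Hdac4HET replicate 3, at 5.46, was barely above the highest WT array at 5.45 and is counted by this rule only. The others lay at 5.95 to 7.64. Leaving them out keeps 9 Dble::R6/2, 9 R6/2, 2 Hdac4HET and 9 WT arrays. Xist and Y-linked genes read as the other sex than labelled on 4 arrays, from Dble::R6/2 replicates 1 and 9, Hdac4HET replicate 1 and WT replicate 9. On Hdac4HET replicates 5 and 9 both were raised (Xist at 11.21 and 11.67, the Y-linked mean at 6.56 and 5.89), so that no sex could be read from them.

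Markers of other cell types and neighbouring regions also differed between R6/2 and WT cortex. They were counted at an adjusted p under 0.05 in limma at any size and, as called, with a change above 1.3-fold as well. Of 12 general neuron markers 4 were lower and 3 higher at any size and none was called, with array means of 11.58 to 11.68 in R6/2 and 11.60 to 11.76 in WT cortex. Of 7 inhibitory neuron markers 4 were lower at any size and none was called, with means of 9.09 to 9.27 in R6/2 and 9.30 to 9.52 in WT cortex. Of 10 astrocyte markers 9 were lower at any size and none was called, with means of 10.64 to 10.81 in R6/2 and 10.96 to 11.08 in WT cortex. These last 2 lists did not overlap between the genotypes. Of 9 oligodendrocyte markers 6 were lower at any size and 2 called, and of 9 microglia markers 4 were lower and none called. Some regional markers moved further, with 6 of 6 striatal markers called lower (means of 7.71 to 8.80 in R6/2 and 8.28 to 9.42 in WT cortex) and 3 of 6 hippocampal markers (5.98 to 6.69 in R6/2 and 6.47 to 7.05 in WT cortex). Of the 12 bulb markers 2 were called lower, and of 7 thalamic markers 1 was lower at any size and none called. Of 8 endothelial markers 2 were higher at any size, none was lower and none was called. The part of these shifts in the results was not tested.

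Part of the release machinery was lower in R6/2 than in WT cortex, and the members of a family did not all move. A call needed both a change above 1.3-fold and an adjusted p (limma, Benjamini-Hochberg over all 45037 probe sets) under 0.05. On the log2 scale 1.3-fold is 0.38. By this rule 12 of the 46 members fell in R6/2 cortex and none rose, while 3.03% of all probe sets were lower and 3.05% higher. Counted by the brightest probe set of each gene, 3.3% of the 18193 genes were lower and 3.75% higher. At an adjusted p under 0.05 with no limit on size, 31 members were lower and 4 higher, against 17.6% and 21.3% of all probe sets, and 11 members did not pass. The median change of the members was -0.22 on the log2 scale, against -0.02 over all probe sets. For 13 members every R6/2 array lay below every WT array, and for 2 members above, where 2.73% and 5.63% of all probe sets did so. Apart from Sv2c, which was dim at the 18.6th percentile of all probe sets, the members were bright, with Syt12 lowest at the 67.9th percentile. In whole tissue, fewer cells of a type and less RNA per cell cannot be told apart.

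**Figure D1:**
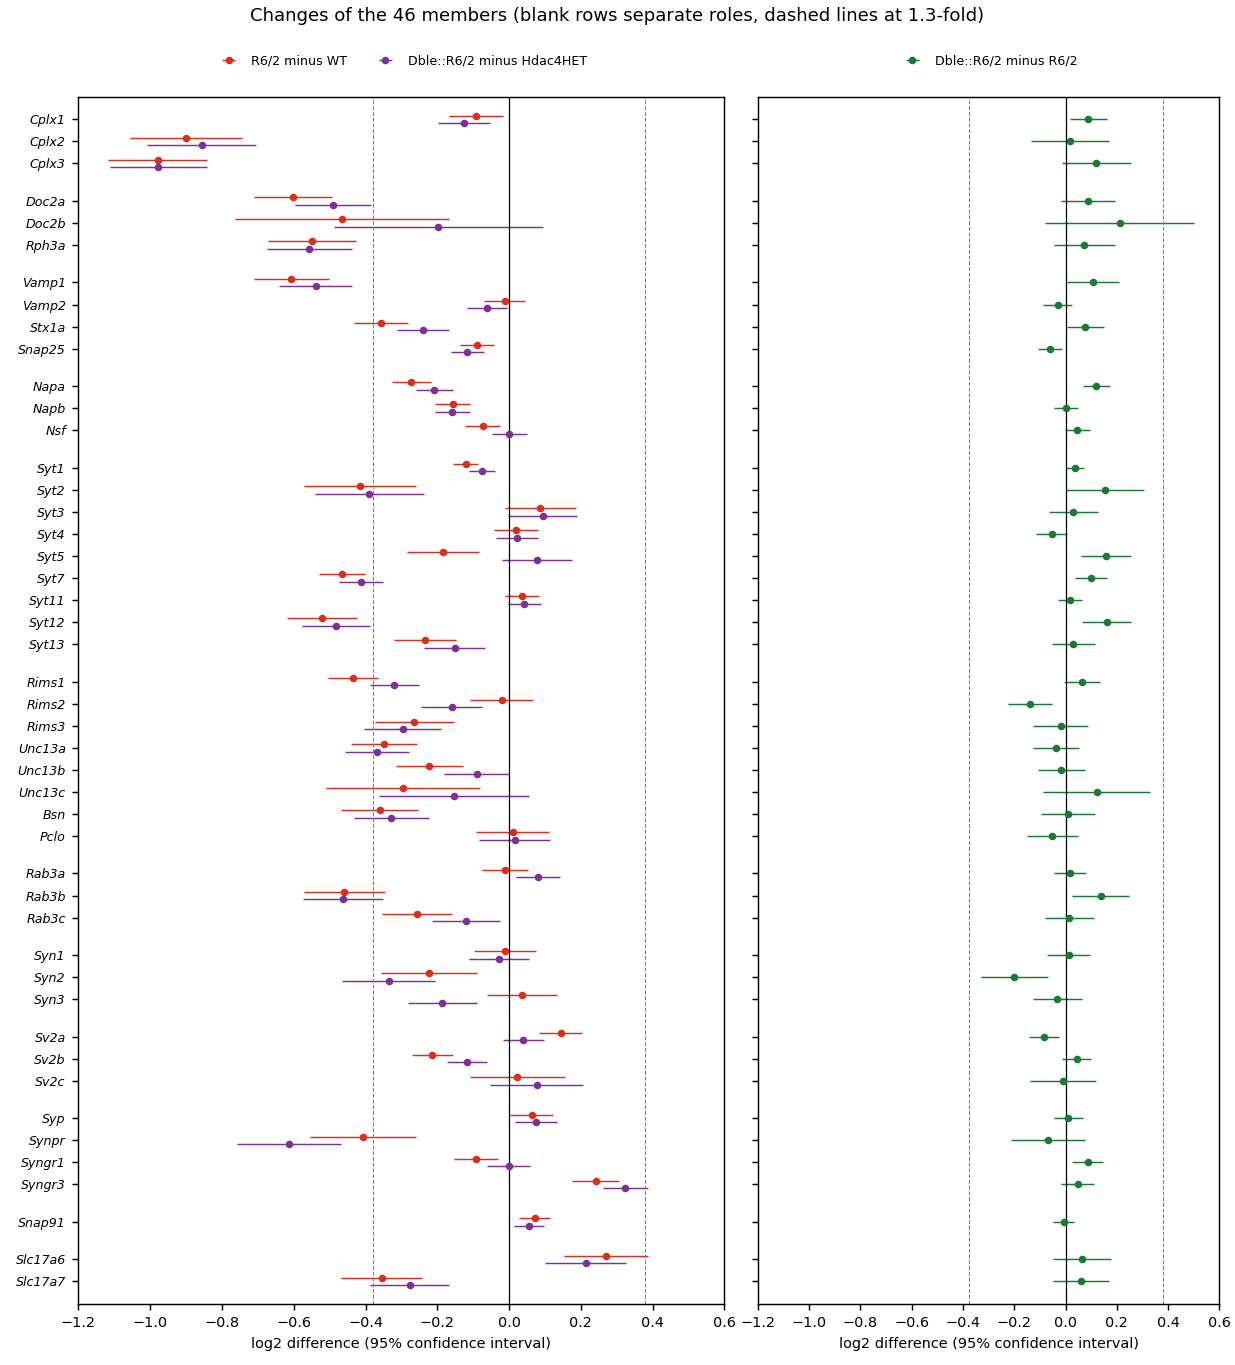
Log2 difference of each of the 46 members on its brightest probe set, with 95% confidence intervals from limma, for R6/2 minus WT and Dble::R6/2 minus Hdac4HET (left) and Dble::R6/2 minus R6/2 (right). Cplx2 and Cplx3 lie farthest to the left in both transgene comparisons, and in the right panel no point lies beyond the dashed lines at 1.3-fold.

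Complexins carried the largest falls. Cplx3, a complexin best known from retinal ribbon synapses and also found in cortex, had log2 levels of 7.29 to 7.74 (median 7.49) on the 9 R6/2 arrays, against 8.31 to 8.70 (median 8.41) on the 9 WT arrays. Its change was -0.98 ± 0.07 (SE), which is 49.3% lower, with an adjusted p of 1.77e-14. Cplx2, the more widespread complexin of excitatory neurons, had levels of 12.00 to 12.43 (median 12.06) in R6/2, against 12.72 to 13.17 (median 13.09) in WT cortex. It fell by 0.90 ± 0.08 (SE), which is 46.4%, with an adjusted p of 5.2e-12. For both genes every R6/2 array lay below every WT array, and the lowest WT array of Cplx2, replicate 8 at 12.72, stood apart from the other WT arrays, of which the nearest was at 12.94. Cplx1, the third complexin, had 12.67 to 12.90 (median 12.83) in R6/2 and 12.77 to 13.04 (median 12.85) in WT cortex. Its difference of -0.09 ± 0.04 (SE; adjusted p = 0.043) was lower at any size but far from the 1.3-fold limit, and the groups overlapped. A less bright Cplx1 probe set, 1417747_at, fell further, with 9.39 to 9.68 in R6/2 and 9.60 to 10.28 in WT cortex. Its change was -0.33, still under the fold limit (adjusted p = 0.000108 in limma without the arrays with raised bulb markers). The other one, 1417746_at, changed by -0.11.

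The 3 complexin promoters are shown because the members of this family moved by such different amounts on their brightest probe sets. They are the 250 bases before the annotated start of each gene, on its own strand, from RefSeq on GRCm38.p6, at chr13:54302306-54302555 (plus strand) for Cplx2, chr9:57606282-57606531 (minus strand) for Cplx3 and chr5:108550028-108550277 (minus strand) for Cplx1. Capitals mark matches, on either strand, to the GC box GGCGGG, the E-box CACGTG and the cAMP response element TGACGTCA.
Cplx2: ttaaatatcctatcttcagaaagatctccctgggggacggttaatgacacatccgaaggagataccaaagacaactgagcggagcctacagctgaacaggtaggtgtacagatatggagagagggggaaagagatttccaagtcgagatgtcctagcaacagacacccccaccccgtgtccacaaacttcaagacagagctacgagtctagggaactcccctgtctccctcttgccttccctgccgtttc
Cplx3: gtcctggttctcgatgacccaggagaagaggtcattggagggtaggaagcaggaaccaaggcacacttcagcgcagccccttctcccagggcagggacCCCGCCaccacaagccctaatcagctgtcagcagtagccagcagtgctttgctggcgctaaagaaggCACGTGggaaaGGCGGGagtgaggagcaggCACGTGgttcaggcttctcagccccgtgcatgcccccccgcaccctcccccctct
Cplx1: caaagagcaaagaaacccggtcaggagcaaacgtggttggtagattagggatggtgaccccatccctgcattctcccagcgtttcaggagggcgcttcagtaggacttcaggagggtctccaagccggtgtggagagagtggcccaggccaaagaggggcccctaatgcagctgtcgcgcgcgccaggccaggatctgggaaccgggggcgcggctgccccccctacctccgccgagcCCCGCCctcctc
Cplx2 held none of the 3 motifs and had a GC content of 50.8%. Cplx3 held 2 GC boxes and 2 E-boxes at a GC content of 62.8%, and Cplx1 held 1 GC box at 64.8%. No matches overlapped each other. Of 32851 promoter windows of this length in the RefSeq table, 32.5% held a GC box, 6.02% an E-box and 1.55% a cAMP response element. RefSeq gave windows for 34 of the 46 members, 45 windows in all, of which 25 held a GC box, 5 an E-box and 1 a cAMP response element. The 12 windows of the 8 called members with an entry held a GC box in 7, an E-box in 1 and a cAMP response element in none. The median GC content was 59% in these 12 windows, 60.8% in those of all members and 52.4% in all windows. A match to these letters describes the sequence only.

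All 3 calcium-binding C2-domain proteins of the Doc2 and rabphilin group were lower in R6/2 cortex. Doc2a, a high-affinity calcium sensor for spontaneous and asynchronous release, had levels of 8.47 to 8.95 (median 8.65) in R6/2, against 8.96 to 9.42 (median 9.26) in WT cortex. It changed by -0.60 ± 0.05 (SE), with an adjusted p of 1.17e-11, and the highest R6/2 array lay just below the lowest WT array. Rph3a, which encodes rabphilin, an effector of Rab3, had 10.02 to 10.38 (median 10.18) in R6/2 and 10.61 to 10.88 (median 10.74) in WT cortex. Its change was -0.55 ± 0.06 (SE; adjusted p = 1.59e-09), again with no overlap. Doc2b spread more widely, with 6.84 to 8.29 (median 7.71) in R6/2 and 7.54 to 8.54 (median 8.09) in WT cortex. Its change of -0.47 ± 0.15 (SE; adjusted p = 0.0107) overlapped between the groups, and without R6/2 replicate 8 it was -0.37 and below the 1.3-fold limit.

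Of the 4 SNARE genes only the vesicle SNARE Vamp1 passed both thresholds. Vamp1 had levels of 9.12 to 9.44 (median 9.35) in R6/2, against 9.79 to 10.04 (median 9.94) in WT cortex. It changed by -0.61 ± 0.05 (SE), with an adjusted p of 3.64e-12, and no array overlapped. Its close relative Vamp2, the main vesicle SNARE of the forebrain, had 11.95 to 12.19 (median 12.07) in R6/2 and 11.99 to 12.23 (median 12.06) in WT cortex, a difference of -0.01 ± 0.03 (SE; adjusted p = 0.776). Stx1a, syntaxin 1A of the plasma membrane, was lower by less than the fold limit, at 11.98 to 12.27 in R6/2 and 12.46 to 12.65 in WT cortex (log2 change -0.36, adjusted p = 4.9e-10). Snap25 was lower by 0.09 on the log2 scale (95% interval -0.14 to -0.04, adjusted p = 0.00251). The 3 genes that take SNARE complexes apart were lower at any size and none past the fold limit. Napa and Napb, which encode alpha- and beta-SNAP, changed by -0.27 (adjusted p = 1.06e-10) and -0.16 (adjusted p = 1.84e-06), with every R6/2 array below every WT array, and the ATPase gene Nsf by -0.07 (adjusted p = 0.0141).

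The promoter of Vamp1, at chr6:125215331-125215580 (plus strand, GRCm38.p6), is shown as that of the SNARE gene called on its brightest probe set. It held 1 GC box, in capitals, and neither of the other motifs, at a GC content of 50.4%.
Vamp1: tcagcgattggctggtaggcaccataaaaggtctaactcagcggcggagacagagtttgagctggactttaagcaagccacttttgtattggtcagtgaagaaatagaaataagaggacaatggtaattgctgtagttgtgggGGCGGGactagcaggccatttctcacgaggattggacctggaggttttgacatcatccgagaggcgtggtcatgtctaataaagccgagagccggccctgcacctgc

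Among 9 synaptotagmins, 3 passed both thresholds and all 3 were lower. Syt7, a slow high-affinity calcium sensor for asynchronous release and facilitation, had levels of 11.43 to 11.66 (median 11.53) in R6/2, against 11.93 to 12.10 (median 12.00) in WT cortex. Its change of -0.46 ± 0.03 (SE) had an adjusted p of 7.65e-15, with no overlap. Syt12, which lacks calcium binding, had 7.24 to 7.42 (median 7.35) in R6/2 and at least 7.69 (median 7.86) in WT cortex, a change of -0.52 ± 0.05 (SE; adjusted p = 2.78e-11), also with no overlap. Syt2, a fast calcium sensor found in cortex mainly in parvalbumin interneurons, had 7.13 to 7.80 (median 7.55) in R6/2 and 7.72 to 8.18 (median 7.91) in WT cortex. The groups overlapped, and the change was -0.42 ± 0.08 (SE; adjusted p = 3.21e-05). Without R6/2 replicate 2 it was -0.37 and below the fold limit. Syt1, the fast sensor of most forebrain synapses, changed by -0.12 (adjusted p = 6.65e-07) and Syt13 by -0.23 (adjusted p = 2.67e-05). Syt5 was also lower at any size, and Syt3, Syt4 and Syt11 did not pass, with differences of 0.02 to 0.09.

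Of 8 active zone genes, the scaffold Rims1 passed both thresholds. Rims1, which tethers vesicles and calcium channels, had levels of 11.08 to 11.34 (median 11.24) in R6/2, against 11.58 to 11.75 (median 11.67) in WT cortex. The change was -0.44 ± 0.03 (SE; adjusted p = 6.65e-13), and the groups did not overlap. Another 5 were lower at any size, with changes of -0.36 to -0.22. Bsn, the scaffold bassoon, changed by -0.36 (adjusted p = 6.8e-07) and Unc13a, the priming factor Munc13-1 of most excitatory synapses, by -0.35 (adjusted p = 6.21e-08). The remaining 3 of these 5 were Rims3, Unc13b and Unc13c. Rims2 and Pclo, the scaffold piccolo, did not pass, at -0.02 and 0.01.

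Rab3b was the Rab3 GTPase that passed. It had 8.75 to 9.24 (median 8.95) in R6/2 and 9.23 to 9.63 (median 9.49) in WT cortex, a change of -0.46 ± 0.06 (SE; adjusted p = 1.7e-08), with 1 WT array, the lowest, within the R6/2 range. Rab3c was lower at any size (-0.26, adjusted p = 3.7e-05), and Rab3a, the main Rab3 of brain synapses, differed by -0.01 (95% interval -0.08 to 0.05, adjusted p = 0.783). Synpr, which encodes synaptoporin, had 10.82 to 11.17 (median 10.99) in R6/2 and 11.28 to 11.65 (median 11.37) in WT cortex. Its change of -0.41 ± 0.07 (SE; adjusted p = 2.1e-05) had no overlap, and without WT replicate 5 it was -0.38 and just below the fold limit.

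The other vesicle proteins moved in both directions and none passed the fold limit. Among the synapsins, which tether reserve vesicles, Syn2 was lower at any size (-0.22, adjusted p = 0.00641), while Syn1 and Syn3 differed by -0.01 and 0.04 and did not pass. Among SV2 proteins, Sv2b was lower (-0.21, adjusted p = 7.45e-08) and Sv2a, the binding site of levetiracetam, was higher, at 11.84 to 11.96 in R6/2 against 11.65 to 11.82 in WT cortex (0.14, adjusted p = 0.000131). Syngr3, synaptogyrin 3, was higher too, at 10.68 to 10.93 in R6/2 against 10.49 to 10.66 in WT cortex (0.24, adjusted p = 9.42e-08), and Syngr1 was lower (-0.09, adjusted p = 0.0153). Both higher genes had every R6/2 array above every WT array. A less bright probe set of Syngr3, 1448216_at, overlapped, with 8.50 to 8.90 in R6/2 and 8.49 to 8.80 in WT cortex, a difference of 0.09. Syp, synaptophysin, the most used marker of synapses, differed by 0.06 (95% interval 0.003 to 0.12) and did not pass. Snap91, an adaptor for vesicle endocytosis, was higher by 0.07 (adjusted p = 0.00618). The vesicular glutamate transporters went apart. Slc17a7 (VGLUT1, of cortical neurons) was lower at -0.36 (adjusted p = 2.04e-06). Slc17a6 (VGLUT2, whose protein in cortex is mostly on thalamic inputs) was higher in RNA at 0.27 (adjusted p = 0.000212). A less bright probe set of Slc17a6, 1418610_at, differed by 0.05, with 7.65 to 8.25 in R6/2 and 7.57 to 8.21 in WT cortex.

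**Figure D2:**
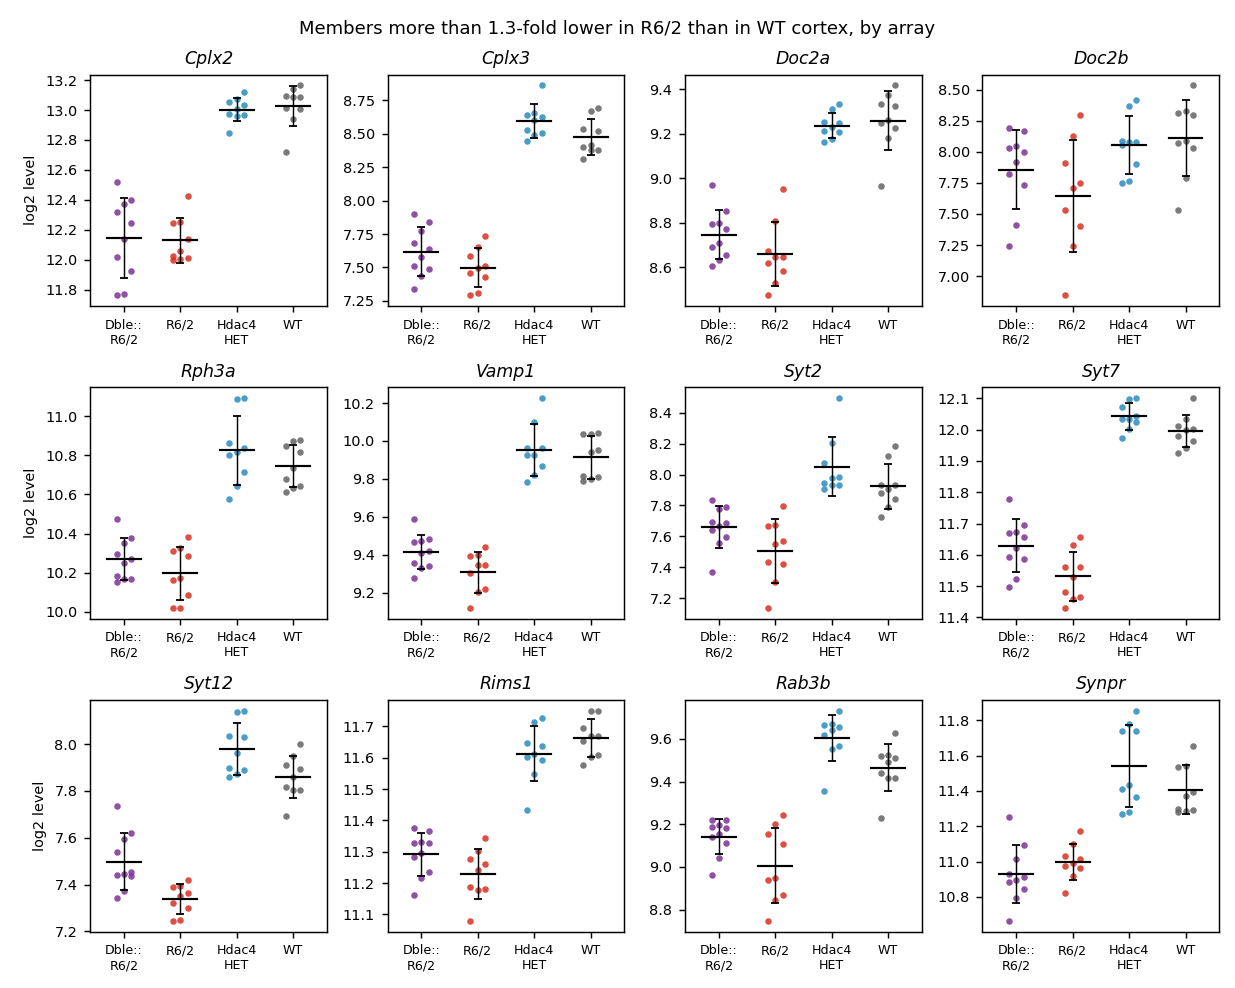
Log2 level of each of the 12 members called in R6/2 against WT cortex on every array, in 10 Dble::R6/2, 9 R6/2, 9 Hdac4HET and 9 WT mice, with the mean (long bar) and SD (whiskers). In each panel the means of Dble::R6/2 and R6/2 lie below those of Hdac4HET and WT, and Doc2b overlaps most between genotypes.

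The transgene was tested a second time on mice with reduced Hdac4. Dble::R6/2 against Hdac4HET shares no array with R6/2 against WT. In it 10 members were lower and none higher past both thresholds, against 5.07% and 2.02% of all probe sets, and all 10 were among the 12 called in R6/2 against WT. At any size 27 were lower and 5 higher (15.6% and 21.2% of all probe sets), with a median of -0.15 against 0.02 over all probe sets. Of the 31 members lower at any size in R6/2, 25 were lower here, and of the 4 higher, 3 were higher (Syngr3, Snap91 and Slc17a6). For 18 members every Dble::R6/2 array lay below every Hdac4HET array and for 1, Syngr3, above, where 3.55% and 5.77% of all probe sets did so.

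Cplx3 had 7.34 to 7.90 (median 7.61) on the 10 Dble::R6/2 arrays, against 8.45 to 8.86 (median 8.60) on the 9 Hdac4HET arrays, a change of -0.98 ± 0.07 (SE; adjusted p = 9.35e-15). Cplx2 had 11.76 to 12.52 (median 12.19) in Dble::R6/2 and 12.84 to 13.12 (median 13.01) in Hdac4HET cortex, a change of -0.86 ± 0.08 (SE; adjusted p = 8.55e-12). The 2 genes thus fell by 49.2% and 44.8%, with no overlap. Rph3a had 10.15 to 10.48 (median 10.26) in Dble::R6/2 and 10.57 to 11.09 (median 10.82) in Hdac4HET cortex (-0.56, adjusted p = 6.75e-10). Vamp1 had 9.28 to 9.59 (median 9.41) in Dble::R6/2 and 9.79 to 10.23 (median 9.93) in Hdac4HET cortex (-0.54, adjusted p = 3.57e-11). Doc2a had 8.61 to 8.97 (median 8.74) in Dble::R6/2 and 9.16 to 9.33 (median 9.23) in Hdac4HET cortex (-0.49, adjusted p = 8.16e-10). For each of these the highest Dble::R6/2 array was below the lowest Hdac4HET array.

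The same separation held for the called synaptotagmins, Rab3b and Synpr. Syt7 had 11.50 to 11.78 (median 11.64) in Dble::R6/2 and 11.97 to 12.10 (median 12.04) in Hdac4HET cortex (-0.41, adjusted p = 9.08e-14). Syt12 had 7.34 to 7.74 (median 7.45) in Dble::R6/2 and 7.86 to 8.14 (median 7.96) in Hdac4HET cortex (-0.48, adjusted p = 1.02e-10). Syt2 had 7.37 to 7.83 (median 7.68) in Dble::R6/2 and 7.91 to 8.50 (median 7.97) in Hdac4HET cortex (-0.39, adjusted p = 5.79e-05). Syt2 was close to the fold limit and fell below it without Dble::R6/2 replicate 10, Hdac4HET replicate 2 or Hdac4HET replicate 8, at -0.37 to -0.33. Rab3b had 8.96 to 9.22 (median 9.17) in Dble::R6/2 and 9.36 to 9.73 (median 9.64) in Hdac4HET cortex (-0.46, adjusted p = 8.09e-09). Synpr had 10.66 to 11.25 (median 10.91) in Dble::R6/2 and 11.27 to 11.85 (median 11.44) in Hdac4HET cortex (-0.61, adjusted p = 6.41e-09).

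Rims1 and Doc2b, called in R6/2 against WT, were not called here. Rims1 had 11.16 to 11.38 in Dble::R6/2 and 11.43 to 11.73 in Hdac4HET cortex, a change of -0.32 ± 0.03 (SE; adjusted p = 6.55e-10) that was separated but under the fold limit. Doc2b had 7.24 to 8.19 in Dble::R6/2 and 7.75 to 8.42 in Hdac4HET cortex, a difference of -0.20 ± 0.14 (SE; adjusted p = 0.311). Syngr3 rose to 10.78 to 10.94 in Dble::R6/2, against 10.40 to 10.64 in Hdac4HET cortex (0.32, adjusted p = 8.29e-11).

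The 8 arrays with raised olfactory bulb markers touch this comparison most, since 7 of them are Hdac4HET. Without them 14 members were called, 13 lower and 1 higher, and 9 of the 10 remained. With only 2 Hdac4HET arrays left, Rab3b was -0.32 (adjusted p = 0.0192) and under the fold limit, and Synpr was -0.38 (adjusted p = 0.00219). Others moved further from 0, with Syt2 at -0.66 (adjusted p = 0.00015), Vamp1 at -0.74 and Rph3a at -0.81. Rims1, Rims3, Unc13a and Bsn were then lower and Syngr3 higher past both limits, at -0.41, -0.43, -0.44, -0.47 and 0.38. Doc2b then differed by 0.06 (adjusted p = 0.916). In R6/2 against WT, which holds none of these arrays, the same 12 members were called, and without the 6 arrays whose sex markers differed from the label or showed both sexes the same 12 and 10 members were called in the 2 comparisons. Beside the bulb markers, those of the striatum were called lower in 6 of 6, with means of 8.04 to 8.63 in Dble::R6/2 and 8.93 to 9.59 in Hdac4HET cortex. Of the hippocampal markers 3 of 6 were called lower, of the astrocyte markers 2 of 10 (9 lower at any size) and of the oligodendrocyte markers 2 of 9. The inhibitory neuron markers, 3 of 7 called and 6 lower at any size, had means of 9.08 to 9.46 in Dble::R6/2 and 9.37 to 9.88 in Hdac4HET cortex. The part of these markers in the members' changes was not tested.

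Within families, the called member was set against a relative that was not called or changed less. The pairs were picked with both transgene comparisons known, so their differences are a description with no test. In Dble::R6/2 minus Hdac4HET the log2 change of Cplx2 less that of Cplx1 was -0.73 ± 0.11 (SE), and that of Cplx3 less that of Cplx1 was -0.85 ± 0.08 (SE). The same difference was -0.48 for Vamp1 less Vamp2, -0.54 for Rab3b less Rab3a and -0.16 for Rims1 less Rims2. Only in the Rims pair did the Dble::R6/2 arrays overlap the Hdac4HET arrays. Against the brightest probe set of Syt1 the difference was -0.31 for Syt2, -0.34 for Syt7 and -0.41 for Syt12. These last 3 rest on that probe set, since less bright ones of Syt1 changed by -0.68 (1431191_a_at) and -0.48 (1421990_at), at least as much as Syt2 (-0.39) and Syt7 (-0.41). In R6/2 minus WT the 8 differences ran from -0.89 for Cplx3 less Cplx1 to -0.30 for Syt2 less Syt1. There, too, the same less bright probe sets of Syt1 changed by -0.54 and -0.44, and a less bright one of Vamp2, 1420833_at, by -0.25. One of Cplx1, 1417747_at, changed by -0.33, beside -0.90 for Cplx2 and -0.98 for Cplx3. The size of the 2 Cplx1 pairs there thus depends on the Cplx1 probe set, but not their sign. Without the arrays with raised bulb markers the 8 differences in Dble::R6/2 minus Hdac4HET lay between -0.94 and -0.24.

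**Figure D3:**
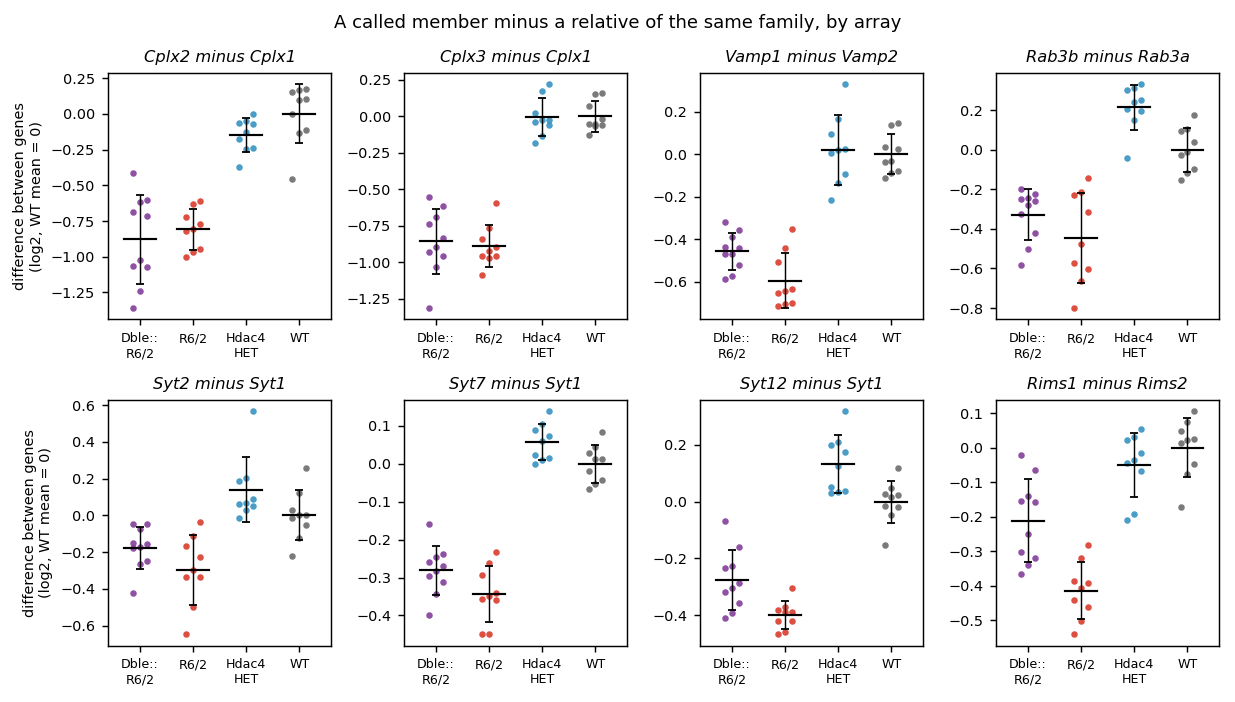
Difference in log2 level between a called member and its relative on every array, set to 0 at the mean of the WT arrays of that pair, with group means (long bars) and SD (whiskers). The Dble::R6/2 and R6/2 means lie below 0 in all 8 panels, and the Dble::R6/2 arrays overlap the Hdac4HET arrays only for Rims1 minus Rims2. The Syt1 panels use its brightest probe set, on which it changed less than on others.

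Reduced Hdac4 was compared within R6/2 mice to ask whether it shifts these levels. In Dble::R6/2 against R6/2 cortex no member passed both thresholds, where 0.246% of all probe sets were lower and 0.0222% higher. The methods' t-test called 0 members too. In limma 15 members had an unadjusted p under 0.05, but the share of all probe sets with such a p was not counted here. The 15 can therefore not be set against a background. The median difference was 0.03, against 0.01 over all probe sets. The intervals limit how large a shift can be. Cplx2 had 11.76 to 12.52 (median 12.19) in Dble::R6/2 and 12.00 to 12.43 (median 12.06) in R6/2 cortex, a difference of 0.02 with a 95% interval of -0.14 to 0.17. Cplx3 differed by 0.12 (-0.01 to 0.25), Vamp1 by 0.11 (0.01 to 0.21), Syt7 by 0.10 (0.04 to 0.16), Doc2a by 0.09 (-0.02 to 0.19) and Rims1 by 0.06 (-0.004 to 0.13). The highest upper bound among the 12 members was that of Doc2b, at 0.50, and the lowest adjusted p was that of Syt12, at 0.059 for a difference of 0.16. The R6/2 arrays that gave these 12 calls also enter this comparison, and for no member were the groups separate (0.0289% of all probe sets were separate and higher, 0.0222% separate and lower).

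Napa alone passed at any size on the brightest probe set. It had 11.17 to 11.32 (median 11.24) in Dble::R6/2 and 11.07 to 11.24 (median 11.10) in R6/2 cortex, with overlapping arrays. Its difference was 0.12 ± 0.03 (SE), with an adjusted p of 0.0168 over all probe sets, where 1.13% of probe sets were higher and 0.855% lower at any size. Without the arrays with raised bulb markers, of which 1 is Dble::R6/2, the difference was 0.12 and the adjusted p 0.0529. Hdac4HET cortex had 11.38 to 11.58 and WT cortex 11.33 to 11.49, above both. The other probe set of Napa, 1416192_at, had the opposite sign, with 8.78 to 9.15 (mean 8.92) in Dble::R6/2 and 8.69 to 9.24 (mean 8.98) in R6/2 cortex. Without the arrays with raised bulb markers it differed by -0.09 (adjusted p = 0.602).

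In Hdac4HET against WT cortex no member passed both thresholds (0.275% of all probe sets were higher and 0.0155% lower), and the methods' t-test called 0. An unadjusted p under 0.05 in limma was found for 10 members, again with no share over all probe sets counted. No member had separate groups, against 0.0311% of probe sets in each direction. Syn3, a neuronal synapsin, was higher at any size, at 8.12 to 8.58 (median 8.41) in Hdac4HET and 8.01 to 8.38 (median 8.17) in WT cortex (0.19, adjusted p = 0.0358, against 0.948% of probe sets higher). Without the arrays with raised bulb markers it differed by 0.07 (adjusted p = 0.862). The 12 members lower in R6/2 differed by -0.06 to 0.14 between Hdac4HET and WT cortex, with a lowest adjusted p of 0.188. Without the arrays with raised bulb markers, which leaves 2 Hdac4HET arrays, they differed by -0.36 (Doc2b) to 0.43 (Syt2). The lowest adjusted p was then 0.191, for Rph3a at 0.34.

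The interaction asked whether the transgene's change differs with Hdac4, as the change in Dble::R6/2 minus Hdac4HET less that in R6/2 minus WT. No member passed both thresholds (0.0688% of probe sets were positive and 0.182% negative) or at any size (0.488% and 0.48%). An unadjusted p under 0.05 in limma was found for 12, with no share over all probe sets counted. For the 12 members called in R6/2 it ranged from -0.21 for Synpr to 0.27 for Doc2b, with a lowest adjusted p of 0.185. Without the arrays with raised bulb markers it ranged from -0.26 for Rph3a to 0.53 for Doc2b, and Synpr was at 0.02. Syt5 had the lowest adjusted p of all members, 0.0504, with an interaction of 0.26. Without the arrays with raised bulb markers its interaction was 0.31 (adjusted p = 0.405). Without those with sex markers unlike the label it was 0.24 (adjusted p = 0.169). Its levels were 9.25 to 9.52 in Dble::R6/2, 9.04 to 9.48 in R6/2, 9.23 to 9.39 in Hdac4HET and 9.20 to 9.60 in WT cortex.

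Most members have further probe sets, and these did not always follow the brightest. There were 34 members with more than 1 probe set. In R6/2 against WT cortex, 17 of the 65 less bright probe sets were lower past both thresholds and none was higher, against the 3.03% and 3.05% above. The second brightest probe set had the same sign as the brightest in 26 of the 34 members. Of the 7 called members with further probe sets, 5 were called on another one as well, which were Cplx2, Rph3a, Vamp1, Syt7 and Rims1. The 2 others, Doc2b and Syt2, had second probe sets at -0.25 (adjusted p = 0.058) and -0.37 (adjusted p = 0.000381), both dim, at the 45.4th and 40.4th percentile. The second probe set of Vamp1, 1421862_a_at, was dim too, at 5.28 to 5.86 in R6/2 and 5.68 to 6.32 in WT cortex.

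Another 8 members were called lower on a less bright probe set alone, which were Stx1a, Snap25, Napb, Syt1, Unc13c, Rab3c, Syn2 and Sv2b. The less bright Snap25 probe set 1447763_at had 7.81 to 8.84 in R6/2 and 8.14 to 9.13 in WT cortex, a change of -0.55 (adjusted p = 0.000271), beside -0.09 on the brightest. For Syt1, probe set 1431191_a_at changed by -0.54 (adjusted p = 8.05e-05), beside -0.12. For Syn2, probe set 1449030_at had 10.24 to 10.83 in R6/2 and 10.88 to 11.33 in WT cortex, a change of -0.59 (adjusted p = 4.62e-06), beside -0.22. These 3 members thus had a larger change on a less bright probe set, and the transcripts that each probe set reads were not looked up here. The others changed by -0.40 (Stx1a, 1448366_at), -0.50 and -0.58 (Napb, 1427470_s_at and 1452444_at), -0.44 (Syt1, 1421990_at), -0.59 (Unc13c, 1430511_at), -0.49 and -0.59 (Rab3c, 1449494_at and 1432432_a_at) and -0.42 (Sv2b, 1435687_at). Snap91 and Pclo had a less bright probe set of opposite sign that passed at any size, with 1437817_at of Snap91 at -0.26 (adjusted p = 0.0157) and 1455373_at of Pclo at -0.23 (adjusted p = 0.0124).

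In Dble::R6/2 against Hdac4HET cortex 16 less bright probe sets were lower past both limits and none higher, against 5.07% and 2.02% of all probe sets. Without the arrays with raised bulb markers 9 of these 16 stayed past both limits. Of the 5 called members with further probe sets, 4 were called on another one as well. The other, Vamp1, changed by -0.31 on 1421862_a_at. The members called in this comparison on a less bright probe set alone were Napa, Napb, Syt1, Rims1, Unc13c, Pclo, Rab3c and Syn2. Pclo, at 0.02 on its brightest probe set, changed by -0.60 (adjusted p = 6.07e-05) on 1452423_at, and by -0.53 (adjusted p = 0.084) without those arrays. The less bright calls of Napb, Unc13c and Rab3c were lost without them too (-0.36 to -0.18, lowest adjusted p = 0.152), as was that of Syt1 on 1421990_at (-0.40, adjusted p = 0.0729). In 6 members a less bright probe set passed at any size with the sign opposite to the brightest. These were Snap91 (-0.37) and Pclo (-0.22) on the probe sets above, Nsf (-0.26), Syngr1 (0.17), Slc17a6 (-0.25) and Rab3c (0.34 on 1432415_at). None of these 6 passed without the arrays with raised bulb markers (lowest adjusted p = 0.231), where Slc17a6 was at 0.13.

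The probe sets of Rph3a gave different values between Dble::R6/2 and R6/2 cortex. Probe set 1449961_at had 7.62 to 8.56 (median 8.04) in Dble::R6/2 and 8.06 to 9.40 (median 8.85) in R6/2 cortex, a change of -0.64 ± 0.16 (SE; adjusted p = 0.0323), beside 0.07 on the brightest. It had 8.78 to 9.76 in Hdac4HET and 8.73 to 9.99 in WT cortex. This was the 1 less bright probe set called in that comparison, its interaction was -0.57 (adjusted p = 0.171), and without the arrays with raised bulb markers the change was -0.59 (adjusted p = 0.0981). At any size 3 of the 65 less bright probe sets were higher and 3 lower, against 1.13% and 0.855% of all probe sets. Those that differed in sign from the brightest were Vamp2, higher on 1420833_at (0.28, adjusted p = 0.0176), and Syt1, lower on 1438282_at (-0.21, adjusted p = 0.0329), neither of which passed without those arrays (adjusted p = 0.0636 and 0.102).

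**Figure D4:**
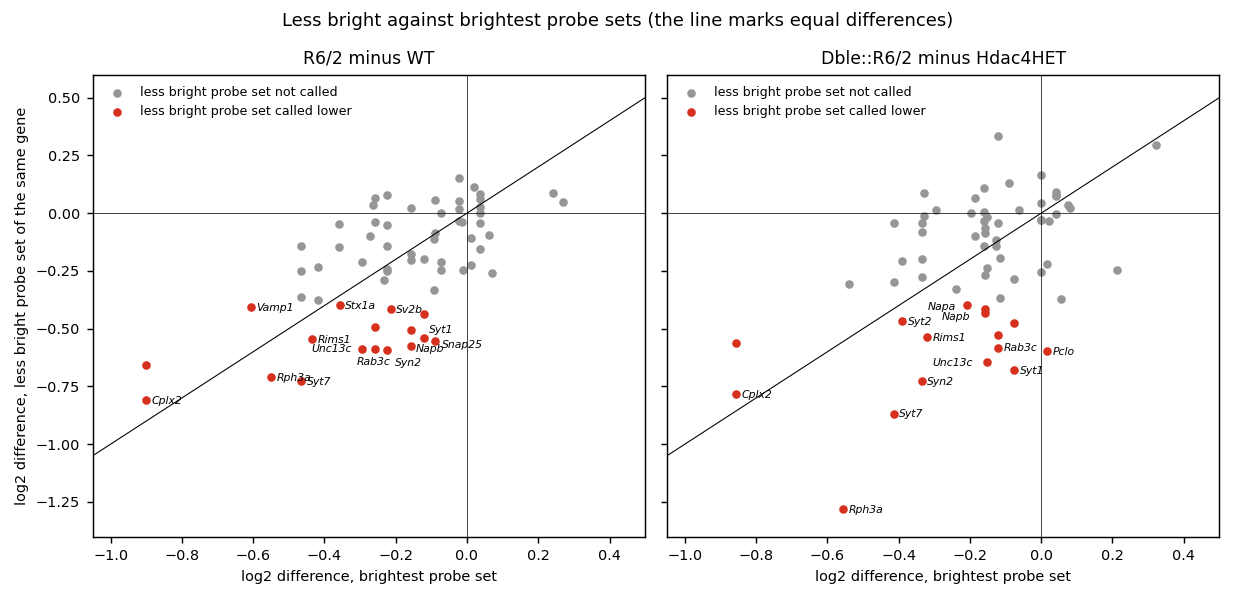
Log2 difference on each of the 65 less bright probe sets (vertical) against the brightest probe set of the same gene (horizontal), for R6/2 minus WT and Dble::R6/2 minus Hdac4HET, with called probe sets in red and 1 label per gene. The 17 red points of the left panel and the 16 of the right panel all lie below 0.

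Other genes of the presynapse were taken from 5 lists. Of their 88 genes, 80 were measured, and in R6/2 against WT cortex 2 were lower and 1 higher past both thresholds, with a median of -0.01. These counts are no more than the 3.03% and 3.05% of all probe sets, and the genes are given as values only. At any size 25 were lower and 21 higher, where 17.6% and 21.3% of all probe sets were. Both lower genes were among 19 measured active zone genes. Erc2, the scaffold CAST, changed by -0.51 (adjusted p = 3.82e-13) and Lin7b, a PDZ-domain adaptor, by -0.47 (adjusted p = 2.32e-09). This list held 11 genes lower and 2 higher at any size, beside the same 17.6% and 21.3% of all probe sets, with a median of -0.20. Syt14, a synaptotagmin without calcium binding, was the higher gene (0.38, adjusted p = 2.07e-07). The lists of other SNAREs and their regulators, other vesicle proteins and vesicle endocytosis held no gene past both limits, with medians of 0.05, -0.0047 and -0.02. The list of 7 other measured synaptotagmins had a median of -0.05.

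In Dble::R6/2 against Hdac4HET cortex 5 of the 80 were lower and none higher past both limits, close to the 5.07% of all probe sets that were lower. These were Erc2 (-0.47), Lin7b (-0.46), Rims4 (-0.44), Lin7a (-0.39) and Syt6 (-0.40). Syt6 had differed by -0.05 in R6/2 against WT cortex. None of the 80 passed both limits in Dble::R6/2 against R6/2, in Hdac4HET against WT or in the interaction.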

How the data were processed

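Total RNA from the cortex of 37 mice was labelled and hybridised to Affymetrix mouse expression arrays, 1 array per mouse. The authors deposited 1 table of log2 values of 45037 probe sets. The summarisation and normalization behind them are not stated in the sources used here. Per the methods, quality was controlled with RACE and arrays of low quality were excluded. Those arrays are not named and the methods give fewer mice for some genotypes, so all 37 arrays were used. Each array is taken as 1 mouse, and the number of arrays limits the precision. The platform annotation gave 1 symbol for 34945 probe sets, several for 932 and none here for 9160.

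The 4 genotypes were fitted in 1 linear model with limma 3.58.1 (R 4.3.3, lmFit, eBayes with a trend), and adjusted p and 95% intervals come from it. The fold limit of 1.3 is 1 reading of the change given in the study's figure legend. Figures used Python 3.11.15. The fit was tested on simulated data. The members, gene lists, markers and comparisons were chosen with earlier results of these data known. All members called in any comparison were named with their values, and up to 2 others of each role by lowest p, with relatives of called members. A less bright probe set was named when it alone was called or passed at any size with the opposite sign, up to 3 called genes of each further list were named, and the 8 family pairs, Syt5, Syn3, Napa, Lin7a and the remaining members were added with values or by name after their values were seen. As alternatives, the fit was repeated after quantile normalization, on probe sets brighter than the median, with array weights, with labelled sex or replicate number in the model, on 1 pair of genotypes at a time, with the t-test of the methods (Benjamini-Hochberg adjusted), with other probe sets of a member, with no fold limit, leaving out the arrays with raised bulb markers or with sex markers unlike the label, and each array left out in turn. Promoters came from RefSeq on GRCm38.p6. Protein sequences were not analysed here.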

Additional observations from a re-analysis of the deposited data

Results flagged for a closer look

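Single arrays stood apart from the other arrays of their genotype for 8 of 184 combinations of a member and a genotype. This is no more than the about 1 in 20 that chance gives, and the 8 are listed as values only. In Hdac4HET cortex, replicate 8 was highest for Cplx3 (8.86, next 8.65) and Syt2 (8.50, next 8.20) and lowest for Rab3b (9.36, next 9.55), and it was 1 of the 2 Hdac4HET arrays without raised olfactory bulb markers. Hdac4HET replicate 2, the other of these 2 arrays, was highest for Syt1 (13.50, next 13.43) and lowest for Unc13c (8.70, next 9.27). In WT cortex, replicate 8 was lowest for Cplx2 (12.72, next 12.94) and Syn2 (11.76, next 12.10), and replicate 4 was highest for Vamp2 (12.23, next 12.09).

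A less bright probe set of Syt13, 1451045_at, changed differently with the transgene at reduced and at normal Hdac4, with an interaction of 0.27 (limma, adjusted p = 0.0104 over all probe sets). It had 9.07 to 9.28 in Dble::R6/2, 8.96 to 9.15 in R6/2, 9.07 to 9.37 in Hdac4HET and 9.26 to 9.46 in WT cortex. Without the arrays with raised bulb markers the interaction was 0.16 (adjusted p = 0.497).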

How the results depend on the processing

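Of the 12 members called in R6/2 against WT and the 10 in Dble::R6/2 against Hdac4HET, the count lay between 9 (second brightest probe sets, 34 members) and 14 (quantile normalization) in the first and between 7 (second brightest probe sets) and 14 (without the arrays with raised bulb markers) in the second, other than without a fold limit, where 35 and 32 members passed. Leaving out 1 array at a time gave 11 to 13 and 9 to 11 members. No called member changed sign under any of these alternatives. In Dble::R6/2 against R6/2, 1 member passed with second brightest probe sets (Rph3a) and 1 without a fold limit (Napa), and in Hdac4HET against WT 1 member passed without a fold limit (Syn3). Leaving out any array gave 0 members in these comparisons and in the interaction. Doc2b missed the threshold with the methods' t-test (adjusted p = 0.056). The labels do not say whether the replicate number pairs mice, and the main fit did not use it. Same-numbered arrays deviated together with a median r of -0.01 to 0.05 (highest 0.22), and over 0.1 in 1 to 3 of 9 pairs of a comparison. So few pairs cannot show that there was no pairing. The replicate block gave 12 members in R6/2 against WT, 9 in Dble::R6/2 against Hdac4HET and 0 in the others. Signal limits Sv2c and, among the called members, the second probe sets of Doc2b, Syt2 and Vamp1, all below the middle of all probe sets. Those of Syp, Rims3 and Unc13b were dimmer still, with genotype means of 4.61 to 4.70, 4.11 to 4.18 and 3.72 to 3.89. They also enter the count of second probe sets with the same sign.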
